A study of Mus musculus with 2 samples.

Results

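Contractile smooth muscle cells of the mouse aorta were taken as the droplet barcodes in which Acta2, Tagln and Myh11 together made up 200 or more of every 10000 unique molecular identifiers (UMIs, each of which counts 1 captured transcript), Dcn and Lum together made up fewer than 20 of every 10000, and Pln had at most 1 UMI. Of 12848 barcodes with at least 3000 UMIs, at least 1000 genes and at most 20% mitochondrial UMIs, 2055 met these limits. The members were thus chosen by their measured levels of Acta2, Tagln, Myh11, Dcn, Lum and Pln, and those levels are given only as a description. They were 774 of 6315 barcodes in library 1 (12.3%, 95% interval 11.5 to 13.1) and 1281 of 6533 in library 2 (19.6%, 18.7 to 20.6). The cells came from aortas of ApoE-/- mice, labelled as 20-week animals, which lack apolipoprotein E and are widely used as a model of atherosclerosis. The series held 2 samples, 1 labelled MSC_ITGB3 and 1 labelled HFD, from HFD-fed animals that had or had not been given MSC_ITGB3 (HFD commonly stands for a high-fat diet, and the labels do not spell out MSC_ITGB3). Both samples share the ApoE-/- genotype, no wild-type mouse is among the samples analysed here, and how many animals were behind each sample is not stated in the labels. The counts are in a single matrix whose barcodes end in 1 or 2, and no label ties either ending to a sample. The barcodes are therefore called library 1 and library 2, every ratio is library 1 over library 2, and none of the values compares MSC_ITGB3 with HFD. With 1 library of each kind there is no replicate check, so no test was made, and all intervals are exact 95% intervals that cover counting error only.

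Contractile smooth muscle cells form the middle layer of the aortic wall, where they set vascular tone and hold the elastic layers together. Force comes from smooth muscle myosin sliding on actin filaments, and it is switched on when calcium and calmodulin activate the kinase that phosphorylates the regulatory light chain. The genes of this apparatus are driven largely by serum response factor, which binds the CArG box, together with its coactivator myocardin. In plaques such cells are known to lose part of this gene programme and to take up matrix, inflammatory or cartilage genes, a state called modulated. Cells of the ascending and descending aorta have different embryonic origins, and the Hox genes they use record position along the body axis.

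The members were deep barcodes, with a median of 11440.5 UMIs and 3405 genes in library 1 and of 10011 UMIs and 3212 genes in library 2. Together they held 9216615 UMIs in library 1 and 13685866 UMIs in library 2. The median mitochondrial share was 3.89% in library 1 and 4.44% in library 2. No barcode sequence was shared between the libraries among the members, against 17 among all barcodes that passed the depth limits. A level is given as CPM, the share of a gene in all UMIs of the named barcodes on the usual scale of counts per 1000000, and since UMIs count 3′ ends it is not scaled by transcript length. Apoe had 18 UMIs in the members of library 1 (1.95 CPM, 1.16 to 3.09) and 22 in those of library 2 (1.61 CPM, 1.01 to 2.43), against 15.2 and 10.3 CPM in all other barcodes of library 1 and library 2. The labels do not say which part of Apoe is deleted, and 3′ counts from an intact end would not check the genotype.

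RNA of other cell types was present at low levels. The 29 markers of endothelium, leukocytes, T cells, neutrophils, chondrocytes, Schwann cells and red cells together summed to 398 CPM in library 1 and 332 CPM in library 2. That was 9.97% and 6.80% of their level in droplets of 20 to 100 UMIs, which hold mostly free RNA and are called low-count barcodes here. Leukocyte markers summed to 246 CPM in library 1 and 98.8 CPM in library 2, endothelial markers to 72.2 and 86.0 CPM, and chondrocyte markers to 34.5 and 77.0 CPM. Pecam1 made up most of the endothelial sum, at 49.5 and 71.9 CPM, while Vwf, Cldn5, Egfl7 and Cdh5 were low and lower in library 2. Acan, at 30.4 and 30.9 CPM, made up most of the chondrocyte sum in library 1. Both genes are among the 29 markers, and whether the members themselves expressed them was not tested. Fibroblast markers, which include the rule genes Dcn and Lum, summed to 790 CPM in library 1 and 672 CPM in library 2, against 11941 and 15190 CPM in all other barcodes. Mural cell markers of small vessels, which include Rgs5 and Notch3, summed to 1145 and 1871 CPM. Markers of T cells, neutrophils, Schwann cells, red cells, cycling cells, skeletal muscle, adipocytes and lymphatic endothelium each summed to under 50 CPM in both libraries, and those of cardiac muscle, which include Tnnt2, to 122 and 32.0 CPM. At least 2 UMIs of the markers of another type, mural, fibroblast and cardiac markers aside, were found in 229 members of library 1 (29.6%) and in 487 of library 2 (38.0%). No doublet caller was run on these barcodes, and the part of free RNA or doublets in the values below was not tested beyond the alternatives given.

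Levels of the markers that the rule did not use are given as a description. Cnn1, which encodes the actin-binding protein calponin, stood at 1261 CPM in the members and 113 CPM in all other barcodes of library 1, and at 1322 and 161 CPM in library 2. Sost, the gene of the Wnt inhibitor sclerostin, stood at 457 against 27.1 CPM in library 1 and at 718 against 71.0 CPM in library 2. Tcap, which encodes the titin cap protein telethonin, stood at 371 against 17.6 CPM in library 1 and at 287 against 26.1 CPM in library 2. All 3 markers outside the rule were thus concentrated in the chosen barcodes of both libraries. Because contractile genes are expressed together, these values describe the choice of barcodes and support nothing further. Sost and Tcap were not high in every cluster of members, as described further on. Over all 4116 genes at 50 CPM or more in the members or the others, 555 (13.5%) were at least 1.5-fold higher in the members of both libraries and 841 (20.4%) at least 1.5-fold lower, with 5 CPM added to each side.

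Of the genes of the rule, Acta2 and Tagln held the most UMIs of all genes in the members. Acta2, smooth muscle actin, reached 22097 CPM in library 1 and 23031 CPM in library 2, Tagln (transgelin, an actin-binding protein) 16908 and 16251 CPM, and Myh11 (the smooth muscle myosin heavy chain) 3577 and 3383 CPM. The sum of these 3 genes had a median of 407 per 10000 UMIs in library 1 and 405 in library 2. The lower and upper quartiles were 300 and 510 per 10000 in library 1 and 315 and 493 in library 2. No Pln UMI was found in 693 members of library 1 (89.5%) and in 1195 of library 2 (93.3%). Members just inside the limit of 200 per 10000, at 200 to 250, numbered 101 in library 1 and 112 in library 2. Barcodes just outside it, at 150 to 200, that met the other limits numbered 55 and 66. Cnn1 stood at 698 CPM just inside and 451 CPM just outside in library 1, and at 752 CPM inside and 612 CPM outside in library 2. Sost stood at 314 and 164 CPM in library 1 and at 438 and 307 CPM in library 2, so neither gene dropped to the level of the other barcodes at the limit.

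All listed genes of the contractile apparatus were expressed, and their level was much the same in both libraries. All 30 of 30 listed genes reached 50 CPM, all 30 were at least 1.5-fold higher in the members than in the other barcodes, and none was 1.5-fold apart between the libraries. Their sum was 85460 CPM in library 1 and 86011 CPM in library 2 of the members, against 12656 and 14690 CPM in all other barcodes. The list includes Acta2, Tagln and Myh11, by whose high levels the members were chosen. The comparison with the other barcodes, by count and by sum, was therefore partly set by the rule. The list was also chosen with earlier results of these data known, so its full score supports nothing further. Over all genes 3.62% were 1.5-fold apart between the libraries, so none of 30 is near that share. The ratios of library 1 over library 2 were lowest for Ldb3, which encodes a protein that anchors actin at dense bodies and Z discs, at 0.760. Myl9, the regulatory light chain of smooth muscle myosin, stood at 5425 CPM in library 1 and 5447 CPM in library 2. Mylk, the kinase of that light chain, stood at 1113 and 1081 CPM, and Ppp1r14a, an inhibitor of the phosphatase that reverses the step, at 1314 and 1354 CPM. The thin filament genes Tpm2 (tropomyosin, 7119 and 6522 CPM), Tpm1 (2120 and 2016 CPM) and Cald1 (caldesmon, 3060 and 3372 CPM) were also close between the libraries. Des, which encodes the muscle intermediate filament desmin, stood at 149 and 170 CPM. The coactivator gene Myocd stood at 356 CPM in library 1 and 404 CPM in library 2, and Srf, the gene of serum response factor, at 12.3 and 14.3 CPM.

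The CArG box was searched in the 300 bases around each gene's start site (250 before it, 50 after it) in the RefSeq promoter table of GRCm38.p6, the patch release of the build mm10. The pattern was CC, 6 bases of A or T and then GG, with no mismatch allowed. It reads the same on both strands, so a single search covers both. The box in this strict form was present in 488 of 27025 genes with a window (1.81%), in 5 of the 25 contractile genes with a window (20%) and in 1 of the 15 leading genes with one (6.67%). Of the 6 markers (Acta2, Tagln, Myh11, Cnn1, Sost and Tcap) only 3 had a window, and 0 of these 3 held the box. Boxes with a mismatch or outside the window were not searched. The 5 holders were Myl9, Myl6, Ldb3, Cnn2 and Vcl, and Myl9 was also the one among the leading genes. A match is a description of these letters and is not a measured binding site. Below are the 250 bases before the start site of 4 of the holders, 5′ to 3′ on the gene's own strand, with the box in capitals, to show its distance from the start. The first is Myl9 (chr2:156775214-156775463, plus strand, box starting at base -161), the second Vcl (chr14:20929148-20929397, plus strand, box at -227), the third Cnn2 (chr10:79988350-79988599, plus strand, box at -56) and the fourth Myl6 (chr10:128493010-128493259, minus strand, box at -50).
Myl9: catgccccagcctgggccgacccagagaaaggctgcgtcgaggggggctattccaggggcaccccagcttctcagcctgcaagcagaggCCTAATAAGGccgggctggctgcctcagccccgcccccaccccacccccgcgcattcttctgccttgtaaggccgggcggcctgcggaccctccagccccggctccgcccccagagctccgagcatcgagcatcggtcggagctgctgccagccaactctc
Vcl: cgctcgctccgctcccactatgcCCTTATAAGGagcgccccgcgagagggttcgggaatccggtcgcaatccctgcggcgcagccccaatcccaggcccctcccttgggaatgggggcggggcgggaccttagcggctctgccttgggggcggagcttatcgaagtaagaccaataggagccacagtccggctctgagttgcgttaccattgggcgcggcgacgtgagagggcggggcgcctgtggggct
Cnn2: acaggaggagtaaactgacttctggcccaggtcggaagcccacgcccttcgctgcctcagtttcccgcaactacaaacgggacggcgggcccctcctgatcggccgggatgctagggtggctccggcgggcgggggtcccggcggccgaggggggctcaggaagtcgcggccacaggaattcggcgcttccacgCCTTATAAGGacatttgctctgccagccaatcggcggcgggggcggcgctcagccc
Myl6: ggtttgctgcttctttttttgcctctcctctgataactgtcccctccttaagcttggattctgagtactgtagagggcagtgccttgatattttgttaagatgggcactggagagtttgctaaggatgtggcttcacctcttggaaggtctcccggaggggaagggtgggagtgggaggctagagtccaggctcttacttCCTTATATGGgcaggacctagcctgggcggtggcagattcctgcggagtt

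The box lay near the start in Cnn2 and Myl6 and farther up in Myl9 and Vcl, and Vcl and Cnn2 had the same letters in the box. Myl6, the essential light chain of nonmuscle and smooth muscle myosin, stood at 8158 CPM in library 1 and 8369 CPM in library 2. Cnn2, the calponin of many nonmuscle cells, stood at 243 and 238 CPM, and Vcl, the gene of the adhesion protein vinculin, stood at 526 and 642 CPM. None of these 4 genes was 1.5-fold apart between the libraries.

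The genes that led the members over all other barcodes came from several functions besides contraction. In falling order of the smaller library ratio, 5 CPM added, 18 of the 20 leading genes were Sost, Tcap, Ppp1r14a, Sh3bgr, Cnn1, E030013I19Rik, Myl9, Tpm2, Itga8, Mylk4, Optc, Tafa1, Ptprz1, Npnt, Efhd1, Pcp4l1, Ccn3 and Npy1r. Itga8, an integrin subunit for fibronectin and nephronectin, stood at 1397 against 135 CPM in library 1 and at 1471 against 205 CPM in library 2. Npnt, which encodes its ligand nephronectin, stood at 590 against 67.3 CPM and at 654 against 96.6 CPM. A receptor and its ligand were thus both among the leading genes of the same cells. Ccn3, a secreted matricellular protein of the CCN family, stood at 1122 CPM in the members of library 1 and 1156 CPM in those of library 2. Npy1r, a receptor of the sympathetic transmitter neuropeptide Y, stood at 180 and 137 CPM. The plot of the leading genes shows these levels beside those of the other barcodes.

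**Figure D1:**
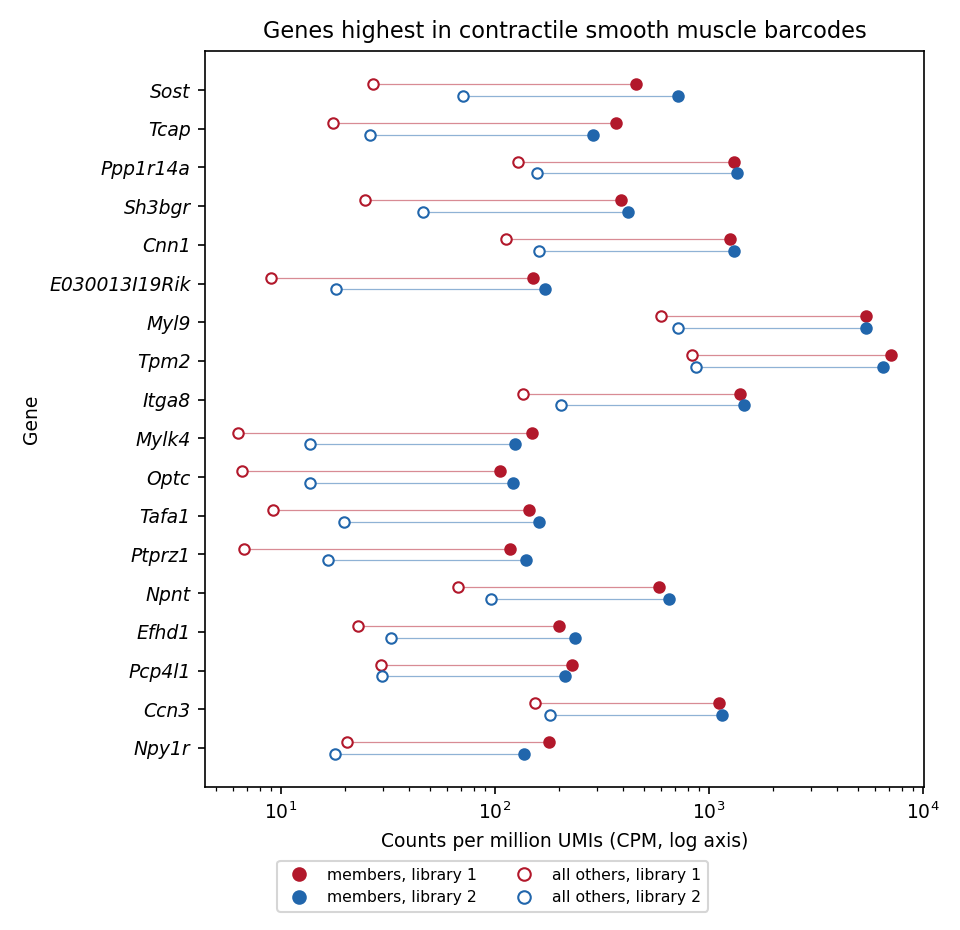
Level in CPM (log axis) of 18 of the 20 genes that lead the contractile smooth muscle barcodes over all other barcodes, with filled points for members and open points for all others, each library in its own colour. Members sit right of the other barcodes for each gene drawn in both libraries, for example Sost at 457 against 27.1 CPM in library 1 and 718 against 71.0 CPM in library 2.

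Cnn1 was found in most members of either library, and Sost and Tcap in fewer. After each barcode was thinned to 3000 UMIs, Cnn1 was found in 93.2% of members in library 1 and 94.9% in library 2, and in 4.06% and 5.03% of leukocyte barcodes, which should lack it. Sost was found in 50.9% of thinned members of library 1 and 68.9% of those of library 2, against 1.76% and 2.96% of leukocyte barcodes. Without thinning, 69.2% of members of library 1 and 84.9% of those of library 2 had a Sost UMI. Tcap was found in 45.5% and 41.4% of thinned members (68.1% and 65.5% unthinned), against 1.76% and 2.07% of leukocyte barcodes. The leukocyte barcodes had median depths of 9063 UMIs in library 1 and 8178 UMIs in library 2 before thinning. Sost and Tcap lead the ranking over all other barcodes, which include the leukocyte barcodes. Their gap to leukocyte barcodes was therefore partly set by that ranking, and the part of free RNA was not tested. Sost was found in more members of library 2.

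Striated muscle genes were limited to a small group of the list. Of 30 such genes, 8 reached 50 CPM in the members, and 7 of the 8 were at least 1.5-fold higher there than in the other barcodes. Fhl1, a LIM protein of the sarcomere and cytoskeleton, led with 983 CPM in library 1 and 1141 CPM in library 2. Sh3bgr, a small protein of heart and muscle, stood at 389 and 422 CPM, Myom1 (myomesin of the M band) at 320 and 376 CPM, and Hspb7 (a small heat shock protein) at 291 and 298 CPM. Mylk4, a kinase related to Mylk, stood at 149 and 125 CPM. The cardiac myosin heavy chains were near the floor, with 0 UMIs of Myh6 in library 1 and 1 in library 2, and 1 UMI of Myh7 in each. A count of 0 is given a limit of 3 UMIs, a rule of its own beside the exact intervals. Tnnt2, cardiac troponin T, was the exception in the comparison of libraries that is described further on.

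Ion channel and calcium handling genes, like most genes, were close between the libraries. Of 18 potassium channel genes, 7 reached 50 CPM, and 5 of the 8 that could be compared were at least 1.5-fold higher in the members than in the others and 1 lower. Kcnab1, a beta subunit of voltage-gated channels, stood at 549 CPM in library 1 and 516 CPM in library 2. The calcium-activated channel pair Kcnma1 (242 and 231 CPM) and Kcnmb1 (160 and 178 CPM), known to limit contraction, and the sulfonylurea receptor Abcc9 (171 and 183 CPM) were all expressed. Of 30 calcium handling genes, 29 are in the matrix and 17 reached 50 CPM, and 7 of 18 compared were at least 1.5-fold higher in the members and 2 lower. They included the L-type channel Cacna1c (212 and 172 CPM), the store pump Atp2a2 (428 and 475 CPM), the store release channels Itpr1 (238 and 251 CPM) and Ryr2 (137 and 135 CPM), and the cGMP-dependent kinase Prkg1 (647 and 498 CPM). None of these channel or calcium genes at 50 CPM was 1.5-fold apart between the libraries. Over all genes 3.62% were, so none in lists this short is near that share. Against the other barcodes, 13.5% of all genes compared were higher in the members of both libraries and 20.4% lower.

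Of the vasoactive genes, 3 regulators of G protein signalling were 1.5-fold apart between the libraries and no receptor at 50 CPM was. Of 46 genes, 13 reached 50 CPM, and 10 of 16 compared were at least 1.5-fold higher in the members than in the others and 2 lower. Ramp1, the partner of the receptor for the dilator peptide CGRP, stood at 412 CPM in library 1 and 551 CPM in library 2. The nitric oxide receptor subunits Gucy1a1 (212 and 173 CPM) and Gucy1b1 (166 and 166 CPM) and the phosphodiesterase Pde5a, which breaks down their product cGMP (181 and 167 CPM), were expressed at similar levels. Agtr1a, the gene of an angiotensin II receptor, was almost undetected, at 0.434 and 0.658 CPM. The genes of this list that were 1.5-fold apart between the libraries were all regulators of G protein signalling, Rgs2 being higher in library 1 and Rgs4 and Rgs5 lower.

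Elastic fibre and collagen genes were more often lower than higher in the members against the remaining barcodes, which include fibroblasts. Of the elastic fibre genes, 12 of 22 reached 50 CPM, 2 of 18 compared were at least 1.5-fold higher and 11 lower, and none was 1.5-fold apart between the libraries. Eln, the gene of elastin, stood at 1180.3 CPM in library 1 and 1455 CPM in library 2. Of the collagen and basement membrane genes, 22 of 30 reached 50 CPM, 6 of 25 compared were higher and 13 lower. Col18a1, a basement membrane collagen, stood at 849 and 967 CPM. The fibrillar Col3a1 stood at 1044 and 784 CPM, against 4108 and 3877 CPM in the others. Between the libraries, Col14a1 and Col8a1 were at least 1.5-fold higher in library 1, and Col15a1, at 129 and 198 CPM, was lower (0.655). Col15a1 was 0.744 without the cluster led by Col15a1 and Art3, which Col15a1 itself helps to define, and Col8a1 (1.79) was 1.47 after thinning, both under 1.5-fold.

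Most mineralisation regulators were lower in the members than in the other barcodes, while matricellular genes were mixed. Of 36 matricellular and other matrix genes, 33 are in the matrix and 25 reached 50 CPM, with 4 of 31 compared higher in the members and 14 lower. Mgp, an inhibitor of calcification, was among the most abundant transcripts of the members, at 7543 CPM in library 1 and 6860 CPM in library 2, and stood at 17803 and 16416 CPM in the others. Fn1, the gene of fibronectin, stood at 1092 and 1445 CPM. Serpine2, a protease inhibitor, was 1.5-fold lower in library 1 (541 against 813 CPM), and Adamts1, Aspn, Crispld2 and Thbs1 were at least 1.5-fold higher, with Thbs1 (thrombospondin 1) at 140 against 74.2 CPM. The ratio of Thbs1 was 1.17 with Dcn and Lum under 5 per 10000, against 1.89 over all members, and that of Serpine2 (0.666) was 0.726 without the cluster led by Pcp4, Hoxa10 and Rgs5, so neither was 1.5-fold apart there. Serpine2 lay at the limit and was inside 1.5-fold under 10 of the alternatives. Of 30 mineralisation regulators, 4 reached 50 CPM, 1 of 15 compared was higher in the members, namely Sost, and 13 were lower. Spp1, the gene of osteopontin, stood at 87.9 and 110 CPM against 4468 and 6802 CPM in the others. Runx2, a regulator of bone formation, stood at 4.99 and 2.48 CPM, and no Bglap UMI (osteocalcin) was found in either library.

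Genes of modulated smooth muscle were mostly low. Of 20 such genes 12 reached 50 CPM, 2 of 19 compared were at least 1.5-fold higher in the members than in the others and 17 were lower, a direction that the limit on Dcn and Lum favours. Lgals3, the galectin often used to mark modulated cells, stood at 180 CPM in library 1 and 147 CPM in library 2. Ly6a, which encodes Sca1, stood at 33.4 and 17.9 CPM. Between the libraries Col8a1 and Igfbp5 were at least 1.5-fold higher in library 1 and Lcn2 was lower. Igfbp5 (1.58) was under 1.5-fold in 5 alternatives, at 1.3 to 1.43, the lowest without the barcodes with other types' markers.

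Integrins, which tie the cells to matrix, were mostly higher in the members than in the others, with 10 of 19 genes at 50 CPM and 7 of 10 compared at least 1.5-fold higher in the members and 1 lower. Besides Itga8, the common beta subunit Itgb1 stood at 1210 CPM in library 1 and 1147 CPM in library 2, Itga9 at 362 and 379 CPM, Itga5 at 201 and 187 CPM, and the laminin receptor subunit Itga7 at 66.8 and 74.5 CPM. Itgb3, the beta 3 chain named within the MSC_ITGB3 label, stood at 44.1 CPM in library 1 and 60.9 CPM in library 2 (0.723, 0.640 to 0.815). Its UMIs were found in 34.7% of members of library 1 and 41.8% of those of library 2 (11.2% and 15.8% after thinning). Over all alternative settings its ratio stayed between 0.642 and 0.776, and since the libraries are not tied to samples this ratio says nothing of a treatment.

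Transcription factors of the smooth muscle programme were mostly close between the libraries. Of 52 listed, 50 are in the matrix, 24 reached 50 CPM, and 4 of 28 compared were at least 1.5-fold higher in the members and 6 lower. Mef2c, a partner of myocardin, stood at 236 CPM in library 1 and 252 CPM in library 2, and Gata6 at 141 and 150 CPM. Klf4, a factor linked to loss of contractile genes, stood at 179 and 122 CPM. Id1 (521 and 321 CPM, ratio 1.63) and the flow-responsive Klf2 (105 and 66.2 CPM) were at least 1.5-fold higher in library 1. The ratio of Klf2 (1.58) was 1.23 without the cluster led by Nrip2, Timp4, Sncg and Notch3. Of 29 genes of TGF-beta, BMP and Notch signalling, 12 reached 50 CPM, 1 of 18 compared was higher in the members and 6 lower. Notch3, a receptor of mural cells, stood at 84.7 and 38.7 CPM, the only gene of that list 1.5-fold apart, and its ratio of 2.19 was 1.74 without the cluster led by Nrip2, Timp4, Sncg and Notch3. Notch3 itself helps to define that cluster. Of 27 growth factors and their receptors, 10 reached 50 CPM, 2 of 20 compared were higher and 11 lower, and none was apart. Pdgfd, a ligand of the PDGF beta receptor, stood at 252 and 251 CPM, and the receptor gene Pdgfrb at 111 and 105 CPM.

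Mitochondrial, ribosomal and lipid genes, like most genes, were close between the libraries. Of 98 nuclear genes of oxidative phosphorylation 79 reached 50 CPM, 20 of 81 compared were at least 1.5-fold higher in the members than in the others and 2 lower. Of 13 mitochondrial transcripts 12 reached 50 CPM, 9 of 12 were higher and 0 lower. Of 83 cytosolic ribosomal protein genes 80 reached 50 CPM, 0 of 80 were higher and 1 lower. Of 20 genes of cholesterol synthesis and lipid handling only 4 reached 50 CPM, with 1 of 8 compared higher and 6 lower. Lrp1, a receptor for lipoproteins and other ligands, stood at 201 CPM in library 1 and 208 CPM in library 2, and Abca1, which exports cholesterol, at 85.7 and 94.5 CPM. None of the genes of these 4 groups at 50 CPM was 1.5-fold apart between the libraries, against 3.62% of all genes.

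Barcodes that failed only the Pln limit, 133 in library 1 and 49 in library 2, were the nearest neighbours on the side of small vessels. Of 3150 genes compared, 177 (5.62%) were at least 1.5-fold higher in the members of both libraries and 196 (6.22%) at least 1.5-fold lower. Cnn1 stood at 1261 CPM in the members and 801 CPM in these neighbours of library 1, and at 1322 and 928 CPM in library 2. Among the genes highest in the members were Ptprz1, a receptor phosphatase, at 119 against 24.0 CPM in library 1 and 140 against 32.9 CPM in library 2, and Ccn5 at 129 against 28.3 CPM and 101 against 25.2 CPM. Among the lowest were Ndufa4l2, a mitochondrial protein known from mural cells and hypoxia, at 5.21 against 151 CPM in library 1 and 4.75 against 134 CPM in library 2, and Nrip2 at 14.2 against 267 CPM and 2.48 against 229 CPM. Sorbs2 and the protease inhibitor gene Timp4 were lower in the members too, Sorbs2 at 118 against 865 CPM and 140 against 928 CPM, and Timp4 at 104 against 633 CPM and 57.6 against 360 CPM. A single UMI separated the groups at the Pln limit, and these differences belong to the contrast that the rule uses.

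On the other side stood the barcodes that failed only the Dcn and Lum limit, 257 in library 1 and 449 in library 2. Of 3188 genes compared, 124 (3.89%) were at least 1.5-fold higher in the members of both libraries and 221 (6.93%) lower. Tcap led the members over them, at 371 against 76.4 CPM in library 1 and 287 against 111 CPM in library 2. The complement gene C3 was low in the members, at 66.4 against 797 CPM in library 1 and 31.1 against 611 CPM in library 2, and so was Apod, an apolipoprotein of fibroblasts, at 1.52 against 69.8 CPM and 15.8 against 483 CPM. Spp1 stood at 87.9 against 895 CPM and at 110 against 2205 CPM. Cnn1 stood at 1261 against 916 CPM in library 1 and 1322 against 881 CPM in library 2. C3, Apod and Spp1 were named because they were among the genes lowest in the members across this limit. That Cnn1 differed less than these genes was therefore set by how they were chosen, and nothing is concluded from it.

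Between the libraries, most genes of the members were at nearly the same level. Of 3229 genes at 50 CPM or more in at least one library, 117 (3.62%) were 1.5-fold apart, 93 of them (2.88%) higher in library 1 and 24 (0.743%) lower. The other 3112 genes (96.4%) lay within 1.5-fold, and 2684 (83.1%) within 1.2-fold. The median log2 ratio over all of them was -0.01. A short list with no gene 1.5-fold apart, as in several lists above, is near the 3.62% of all genes. Of the 93 genes higher in library 1, 19 were also at least 1.5-fold higher there in all other barcodes and 0 lower, and of the 24 lower ones 11 were also lower in the others. The plot of the members of library 1 against those of library 2 shows this spread.

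**Figure D2:**
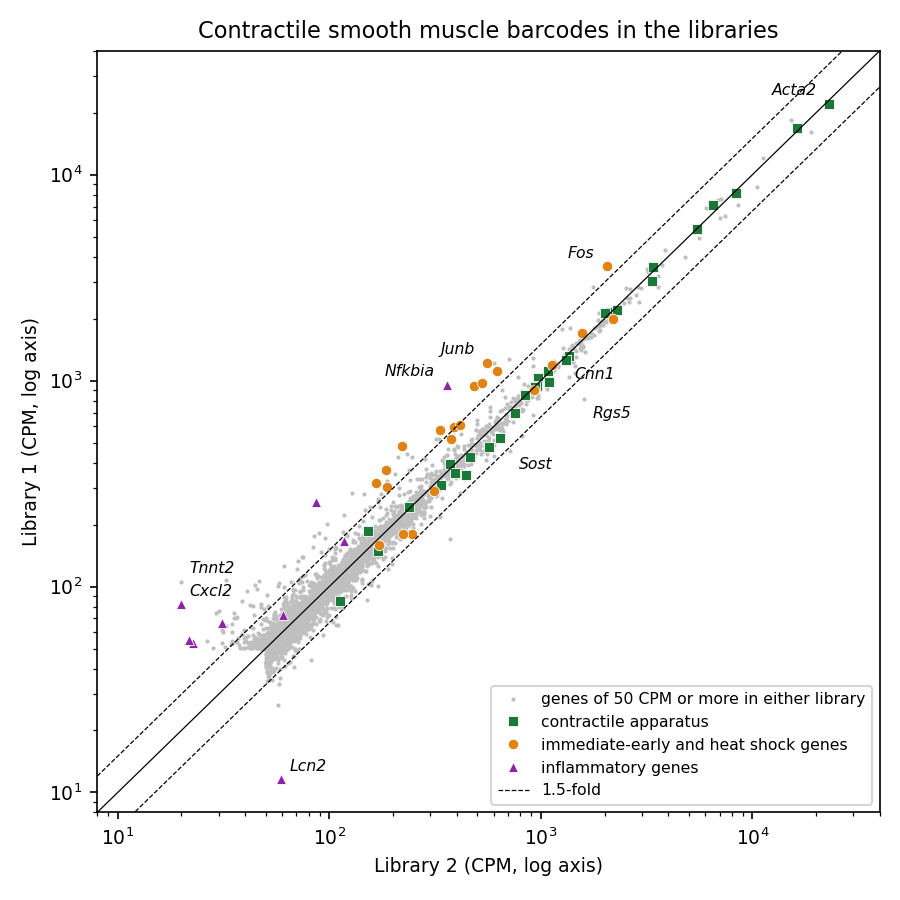
Level in CPM of each gene in the contractile smooth muscle barcodes of library 1 against its level in those of library 2, both on log axes, 1 point per gene, with a solid line of equal levels and dashed lines at 1.5-fold. The contractile genes lie along the line of equal levels, while Nfkbia (957 against 360 CPM) lies on the side of library 1 and Rgs5 (813 against 1597 CPM) on the side of library 2.

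The immediate-early genes, which are transcribed within minutes of a stimulus, were mostly higher in library 1. Of 23 immediate-early and heat shock genes 21 reached 50 CPM, and 11 of them (Atf3, Dnajb1, Egr1, Fos, Fosb, Ier2, Ier3, Jun, Junb, Nr4a1 and Zfp36) were at least 1.5-fold higher in library 1, with 0 lower. Dnajb1 (1.62) and Fosb (1.54) were 1.245 and 1.27 without the cluster led by Nrip2, Timp4, Sncg and Notch3. The list's median log2 ratio was 0.62, against -0.01 over all genes. Fos stood at 3602 CPM in library 1 and 2046 CPM in library 2 (1.76, 1.73 to 1.79), Junb at 1221 and 557 CPM (2.19, 2.13 to 2.26) and Atf3 at 944 and 482 CPM (1.96). Of the heat shock genes, Dnajb1 aside, none was 1.5-fold apart, with Hspa1a at 1187 and 1132 CPM, Hspa8 at 1701 and 1571 CPM and Hsph1 at 180 and 247 CPM. In all other barcodes the same genes were nearer to equal, with Fos at 2247 CPM in library 1 and 2230 CPM in library 2, Atf3 at 592 and 614 CPM, Egr1 at 1115 and 1096 CPM and Zfp36 at 523 and 463 CPM. In the members Egr1 stood at 1112 and 618 CPM and Zfp36 at 483 and 220 CPM, so in library 2 both were below the level of the other barcodes and in library 1 near it. Fos and Atf3 were instead above that level in library 1, and near it or below it in library 2. Other cell types are not all alike here: Fos stood at 1108 and 1389 CPM in leukocyte barcodes and at 1262 and 789 CPM in endothelial barcodes. In the barcodes that failed only the Pln limit, Fos, Atf3, Egr1 and Zfp36 were higher in library 1 too. Fos stood there at 5778 and 4113 CPM, Atf3 at 1658 and 1114 CPM, Egr1 at 1623 and 969 CPM and Zfp36 at 997 and 583 CPM. The direction was thus not particular to the members. Against the other barcodes, 1 of 22 genes of the list was higher in the members of both libraries and 1 lower.

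Inflammatory genes were low in the members and higher in library 1. Of 20 such genes 9 reached 50 CPM in either library, 6 of the 9 (C3, C4b, Cxcl1, Cxcl2, Nfkbia and Tnfaip3) were at least 1.5-fold higher in library 1 and Lcn2 was lower. Nfkbia, the inhibitor that NF-kappaB induces to shut itself off, stood at 957 CPM in library 1 and 360 CPM in library 2 (2.66, 2.57 to 2.75). After thinning it was found in 79.8% and 54.1% of members. Its level was 1031 and 605 CPM in all other barcodes and 907 and 663 CPM in low-count barcodes, so it was higher in library 1 there too. The chemokine gene Cxcl1 stood at 258 and 86.2 CPM (2.99, and 4.90 with the low-count profile taken off), and Tnfaip3, another feedback inhibitor, at 53.5 and 22.7 CPM. Cxcl2, at 82.4 and 19.9 CPM, rested on few barcodes, since 1 barcode held 18.6% of its UMIs in library 1 and 1 held 14.7% in library 2, and its ratio was 1.63 with Acta2, Tagln and Myh11 at 400 or more per 10000. C3 was 0.936 with Dcn and Lum under 5 per 10000, against 2.14 over all members. In low-count barcodes Cxcl2 stood at 450 and 303 CPM and C3 at 867 and 1016 CPM, above the members in both libraries. Taking 9.97% and 6.80% of that profile off left no Cxcl2 in library 2 and no C3 in either library. That setting therefore gives no ratio for Cxcl2 or C3. Against the other barcodes 0 of 16 genes of the list were higher in the members and 15 were lower.

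Genes that respond to glucocorticoids followed the same direction. Of 12 such genes 8 reached 50 CPM, and 5 of them (Errfi1, Mt1, Per1, Sgk1 and Zbtb16) were at least 1.5-fold higher in library 1, with 0 lower, Sgk1 (1.59) being 1.47 without the cluster led by Nrip2, Timp4, Sncg and Notch3. Zbtb16, a zinc finger factor, stood at 176 CPM in library 1 and 84.6 CPM in library 2 (2.08), against 76.1 and 29.7 CPM in all other barcodes. Mt1, the gene of a metallothionein, stood at 2837 and 1763 CPM in the members (1.61) and at 2704 and 1797 CPM in the others. For Mt1 and Zbtb16, unlike Fos, the other barcodes of library 1 were thus higher as well. Against the others 1 of 10 compared was higher in the members of both libraries and 2 were lower.

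**Figure D3:**
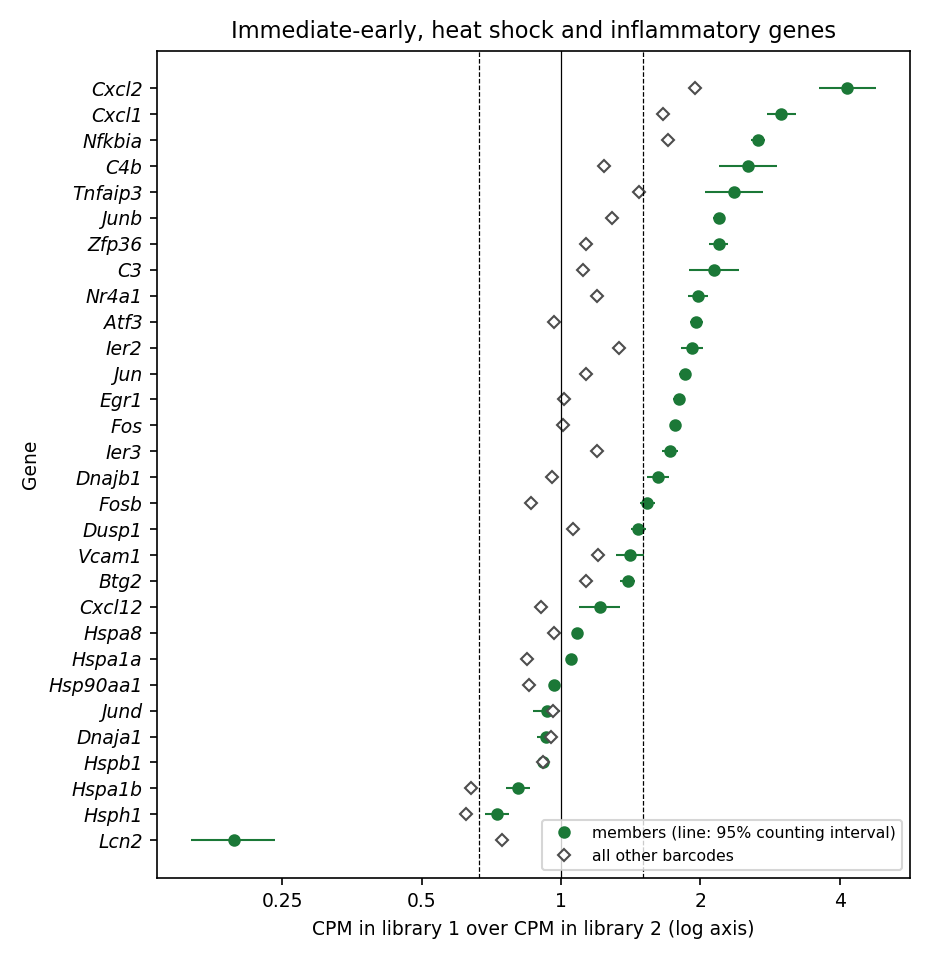
Ratio of CPM in library 1 over library 2 (log axis) for the immediate-early, heat shock and inflammatory genes at 50 CPM or more, with filled points for the members (lines, 95% counting intervals), open diamonds for all other barcodes, a solid line at 1 and dashed lines at 1.5-fold. In the members Cxcl2 (4.14), Nfkbia (2.66), Junb (2.19) and Fos (1.76) lie right of their diamonds, Hspa1a and Hspa8 lie near 1, and Lcn2 (0.197) lies far to the left.

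Among single genes at 50 CPM or more in either library, Tnnt2 had the highest ratio, with 5 CPM added to both sides. It stood at 106 CPM in library 1 and 20.0 CPM in library 2 (5.30, 4.63 to 6.08) and was found in 11.6% and 3.20% of thinned members. Actc1, the cardiac actin, stood at only 14.4 and 10.5 CPM and Tnni3, cardiac troponin I, at 1.95 and 1.39 CPM, so their ratios lay nearer to 1. Without the cluster it leads, described further on, the ratio of Tnnt2 was 3.08. Lyz2, at 108 and 32.7 CPM (3.29), and Cd74, at 95.6 and 40.7 CPM (2.35), are leukocyte genes. In low-count barcodes Lyz2 stood at 1119 and 768 CPM, and taking that profile off left no Lyz2 in the members of either library. Lyz2 stood at 1639 and 830 CPM in all other barcodes. Among the members, 1 barcode held 43.4% of the Lyz2 UMIs in library 1 and 1 held 24.6% in library 2. For Cd74, 1 barcode held 29.1% of the UMIs of the members in library 1 and 1 held 32.5% in library 2. Without the clusters led by genes of other cell types the ratio of Lyz2 was 1.10, and without the barcodes that held other types' markers that of Cd74 was 0.637, while after thinning that of Cd74 was 1.22. Lyz2 and Cd74 are themselves among those markers and lead one of those clusters, so the first and second of these values come from leaving out barcodes by the same genes and test nothing. The remaining genes of the 10 highest were Gdf15 (75.7 and 29.96 CPM), a stress cytokine, Rasd1 (74.1 and 29.1 CPM), a small G protein induced by glucocorticoids, and C4b (55.1 and 21.8 CPM), a complement component. The ratio of C4b, 2.53 over all members, lay between 1.72 and 8.49 over all settings. The 8.49 came with the profile of low-count barcodes taken off, where C4b stood at 259 and 268 CPM. Little C4b was then left in library 2, so that value rests on a small remainder.

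Rgs5, a regulator of G protein signalling typical of pericytes and arterial smooth muscle, was the gene with most UMIs among those lower in library 1. It stood at 813 CPM in library 1 and 1597 CPM in library 2 (0.509, 0.496 to 0.523), and Rgs4, of the same family, at 65.0 and 108 CPM (0.601, and 0.703 after thinning). Without the cluster led by Pcp4, Hoxa10 and Rgs5, which Rgs5 itself helps to define, the ratio of Rgs5 was 0.797 and no longer past 1.5-fold. Rgs2 went the other way, at 125 and 61.0 CPM (2.06). Sost stood at 457 and 718 CPM (0.637, 0.615 to 0.661), and its ratio was 0.382 in all other barcodes. It was 0.691, just inside 1.5-fold, without the cluster led by Nrip2, Timp4, Sncg and Notch3. Lcn2, which encodes the iron-binding protein lipocalin 2, stood at 11.6 and 59.0 CPM (0.197, with 0.0768 to 0.423 over all alternatives), but 1 barcode held 20.6% of its UMIs in library 1 and 1 held 42.6% in library 2. Akr1b3, an aldose reductase, stood at 170 and 374 CPM (0.454). The others of the 10 lowest were Gpsm2, Ccdc42, Rsrp1, Stimate, Art3 and Ccdc90b. Art3 (0.591) was 0.765 without the cluster led by Col15a1 and Art3, which Art3 itself helps to define, and 0.689 after thinning.

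Within each library the members were far from uniform in some genes. Over genes with a mean of 0.3 UMIs or more after thinning to 3000, the median ratio of variance to mean was 1.16 in library 1 and 1.13 in library 2, where 1 is expected from counting alone, and 104 of 1515 genes were over 2 in both. The nuclear RNA Malat1 had the highest ratios by the smaller of both library values, at 33.4 and 27.2, followed on that measure by Mgp at 28.0 and 21.6, Eln at 15.1 and 15.3 and Rgs5 at 14.6 and 14.99. Rgs5 had no UMI in 524 of 774 thinned members of library 1 and in 586 of 1281 of library 2, and the 10% of members with the most held 74.8% of its UMIs in library 1 and 55.2% in library 2. Eln was also concentrated, with 54.8% and 47.6% of UMIs in the top 10%. Acta2 was much more even, with a median of 60.5 UMIs in library 1 and 62 in library 2 and 19.2% and 18.4% of UMIs in the top 10%. Fos had a median of 8 UMIs per thinned member in library 1 and 4 in library 2, and its ninth decile was 27 and 15 UMIs. For Nfkbia, 21.4% of members of library 1 and 3.20% of those of library 2 had 5 or more UMIs. In Fos and Nfkbia the middle of the distribution was thus higher in library 1, whereas 13 members of library 1 and 1 of library 2 held 5 or more Tnnt2 UMIs.

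The members carried genes that mark position along the body axis. Hand2, a factor of the heart field and the neural crest, was found in 212 members of library 1 and 201 of library 2, and a Hox gene of paralog groups 9 to 13 in 84 and 204. Only 3 members of library 1 and 6 of library 2 had both. Hox9 to Hox13 were found in 1.42% of members with a Hand2 UMI against 14.4% of those without in library 1, and in 2.98% against 18.3% in library 2. Genes of groups 4 to 8 were found in 21.2% of members with Hand2 and 68.9% of those without in library 1, and in 33.8% and 69.6% in library 2. After thinning, Hand2 was found in 9.30% and 5.31% of members against 0.353% and 0.296% of leukocyte barcodes, and Hox9 to Hox13 in 4.52% and 7.96% against 1.59% and 1.18%. Endothelial barcodes, thinned alike, held Hox9 to Hox13 more often than the members did, in 25.5% and 27.6%, and Hand2 in 0.334% and 0.813%. Hand2 and the posterior Hox genes thus seldom shared a barcode in either library. Hox genes as a list were sparse, with only Hoxa7, at 48.7 and 54.0 CPM, near or over 50 CPM, and it was not 1.5-fold apart between the libraries. Against the other barcodes its log2 ratio, with 5 CPM added to both sides, was 0.53 in library 1 and 0.91 in library 2, so it passed 1.5-fold in library 2 only.

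Members were then split by these genes into 4 groups that do not overlap, a split that was chosen after the data had been seen. Members with Hand2 but no Hox9 to Hox13 numbered 209 in library 1 (27.0%) and 195 in library 2 (15.2%), those with Hox9 to Hox13 but no Hand2 81 (10.5%) and 198 (15.5%), those with only Hox4 to Hox8 313 (40.4%) and 583 (45.5%), and those with none 168 (21.7%) and 299 (23.3%). Deeper barcodes are more likely to show a rare gene, and the median depth was 13365 and 11886 UMIs with Hand2, 11706 and 10649 with Hox9 to Hox13, 10793 and 10231 with Hox4 to Hox8, and 9683 and 7717 with none. Hand2 itself stood at 43.3 CPM in library 1 and 23.2 CPM in library 2 over all members (1.87).

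Members with Hand2 and members with Hox9 to Hox13 were apart in a limited set of genes. Cnn1 stood at 1419 and 1132 CPM in library 1 and at 1362 and 1026 CPM in library 2. Of 3094 genes compared, 54 (1.75%) were at least 1.5-fold higher with Hand2 in both libraries and 53 (1.71%) lower. Rgs5 stood at 216 CPM with Hand2 and 3270 CPM with Hox9 to Hox13 in library 1, and at 264 and 5644 CPM in library 2. With only Hox4 to Hox8 it lay between, at 762.2 CPM in library 1 and 1027 CPM in library 2. Fn1 followed the same order, at 690 and 2034 CPM in library 1 and at 799 and 2489 CPM in library 2. The matrix gene Tnc (28.1 and 326 CPM in library 1, 26.7 and 146 CPM in library 2), the growth factor binding protein Igfbp5 (74.6 and 570 CPM, 49.3 and 342 CPM), the ATP receptor P2rx1 (13 and 90.3 CPM, 30.4 and 91.3 CPM) and the growth factor Vegfd (6.50 and 70.2 CPM, 6.57 and 66.3 CPM) were likewise lower with Hand2. The order was the reverse for other genes. Wif1, a Wnt inhibitor (75.6 and 13.04 CPM, 82.9 and 10.5 CPM), Bmpr1b, a BMP receptor (122 and 33.1 CPM, 239 and 59.3 CPM), and Bdnf, a neurotrophin (104 and 28.1 CPM, 94.8 and 22.0 CPM), were higher with Hand2.

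**Figure D4:**
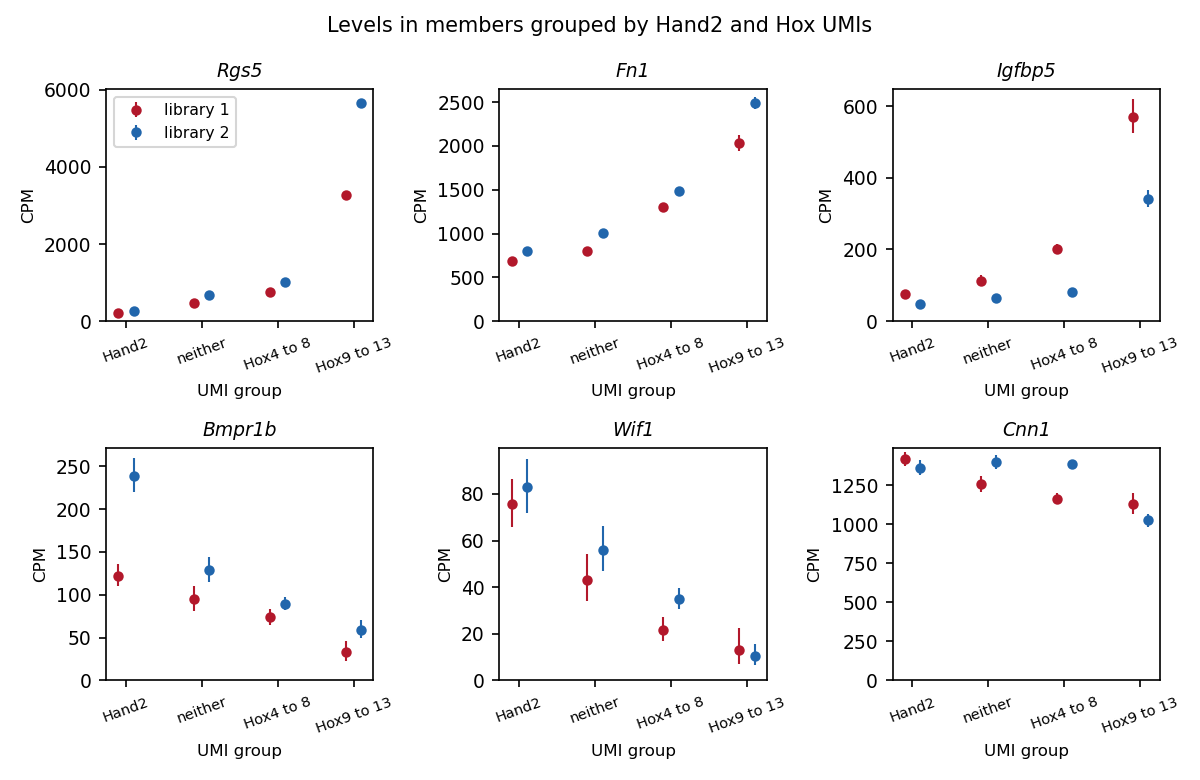
Level in CPM (linear axes from 0; lines, 95% counting intervals) of 6 genes in members with a Hand2 UMI, with neither, with only Hox4 to Hox8 and with Hox9 to Hox13, in library 1 and library 2. Rgs5 and Fn1 are lowest with Hand2 and highest with Hox9 to Hox13 in both libraries, Bmpr1b is higher with Hand2 (122 and 239 CPM) than with Hox9 to Hox13 (33.1 and 59.3 CPM), and Cnn1 differs little.

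By lists, the contractile apparatus was close between these groups. None of its 30 genes was 1.5-fold apart in both libraries, and the median log2 ratio of Hand2 over Hox9 to Hox13 was 0.01 in library 1 and 0.05 in library 2. Of 12 elastic fibre genes 3 were higher with Hand2, namely Fbln5 (375 and 225 CPM in library 1, 352 and 208 CPM in library 2), Mfap4 (480 and 216 CPM, 577 and 307 CPM) and Mfap5 (349 and 160 CPM, 335 and 175 CPM), and 0 were lower. Of 24 matricellular and matrix genes 2 were higher (Prelp and Ccn3) and 4 lower (Tnc, Fn1, Crispld2 and Serpine2). Of 24 transcription factors 0 were higher and 2 lower, Tbx18 and the nuclear receptor Nr2f2. None of the 21 immediate-early and heat shock genes, 79 oxidative phosphorylation genes, 12 mitochondrial transcripts or 80 ribosomal protein genes was 1.5-fold apart in both libraries.

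The library differences were examined within these groups. Nfkbia was higher in library 1 in each, at 1015 and 412 CPM with Hand2, 668 and 381 CPM with Hox9 to Hox13, 992 and 337 CPM with Hox4 to Hox8 and 962 and 351 CPM with none. The library ratio of Fos was 1.23 with Hand2, 1.5 with Hox9 to Hox13, 2.28 with Hox4 to Hox8 and 1.65 with none. Sost was lower in library 1 in all 4 groups, at 454 and 620 CPM with Hand2, 363 and 657 CPM with Hox9 to Hox13, 463 and 739 CPM with Hox4 to Hox8 and 512 and 810 CPM with none. For Rgs5 the ratio was 0.820 with Hand2, 0.579 with Hox9 to Hox13, 0.742 with Hox4 to Hox8 and 0.680 with none, each nearer to 1 than its 0.509 over all members and each below 1. Members with Hox9 to Hox13, where Rgs5 was high, were 10.5% of library 1 and 15.5% of library 2, and the part of this in the ratio over all members was not tested. Tnnt2 was most uneven with Hand2, at 202 CPM in library 1 and 23.8 CPM in library 2, and with none of the genes, at 114 and 15.8 CPM. With only Hox4 to Hox8 it stood at 27.0 and 19.5 CPM.

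Clustering of the members, at a resolution of 1.0, gave 13 clusters, which stay unnamed, and it gave 7 at a resolution of 0.5. The genes that defined a cluster are given only to identify it. The libraries took unequal parts of several clusters, and what that adds to the library ratios above was not tested beyond the values given without a cluster. A cluster of 169 members (15 of library 1 and 154 of library 2) led by Pcp4, Hoxa10 and Rgs5 had a Hox9 to Hox13 UMI in 76.3% of its members, and Rgs5 stood there at 7312 CPM against 756 CPM in all other members. A cluster of 316 (75 and 241) was led by Col15a1 and Art3, one of 228 (61 and 167) by Hand2 and Wif1, one of 237 (68 and 169) by Calcrl and Hoxa7, and one of 204 (138 and 66) by Nrip2, Timp4, Sncg and Notch3. Of these 204, Nrip2, Timp4 and Notch3 were also high in the barcodes over the Pln limit, Notch3 at 375 and 244 CPM in library 1 and library 2. The cluster of 204 took 17.8% of the members of library 1 and 5.15% of those of library 2. Sost stood there at 128 CPM against 657 CPM in all other members and Cnn1 at 820 against 1341 CPM. Tcap was not lower there, at 372 against 316 CPM. A cluster of 139 (67 and 72) was led by Hp, Igfbp2 and Lcn2. Another of 33 (21 and 12) was led by Csmd1, Gpx3 and Vtn. In those 33 members Sost stood at 8.74 CPM and Tcap at 2.91 CPM, against 622 and 326 CPM in all other members. Cnn1 was not lower in them, at 1524 against 1294 CPM. Tnnt2 led a cluster of 109 members of library 1 and 4 of library 2, and this cluster, like the Pcp4 cluster, may reflect 1 library and not a kind of cell. Tnnt2 stood at 388 CPM in this cluster against 34.1 CPM in all other members, and 57.5% of the cluster had a Hand2 UMI. Groups led by Fcer1g and Lyz2 (61 members, median depth 4582 UMIs), Ccl5 and Camk4 (53 members, 4279 UMIs) and Cldn5 and Vwf (38 members, 3834 UMIs) were shallow and led by genes of leukocytes, T cells and endothelium.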

How the data were processed

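The authors deposited 1 unfiltered matrix of UMI counts (32285 genes, 2828620 barcodes) with no normalization. Libraries were 10x 3′ v3 per the labels' protocols. Per the file headers, Cell Ranger 6.0.1 made the matrix, and the build mm10, bcl2fastq and Seurat are named by the submitters' processing notes. The gene annotation used for counting is not stated there.

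From these counts, UMIs were summed per gene, library and group of barcodes and expressed as CPM. The libraries held 110257209 and 124266676 UMIs in all, of which the members held 9216615 and 13685866. A gene was compared at 50 CPM or more on at least one side and called apart at 1.5-fold. With 5 CPM added to both sides, genes were ranked by ratio. Intervals on CPM and ratios are exact Poisson intervals and those on shares are Clopper-Pearson intervals, at 95%. No test and no p-value was computed. Shares of barcodes with a UMI were also computed after thinning each barcode to 3000 UMIs, which left out no member. Members were clustered with scanpy 1.11.5 (2000 variable genes, 30 components, 15 neighbours, Leiden resolution 1.0, seed 0). Leukocyte and endothelial barcodes had 50 or more of every 10000 UMIs in markers of that type and under 50 in Acta2, Tagln and Myh11. The other tools were Python 3.11.15, numpy 2.4.6, scipy 1.17.1, pandas 2.3.3 and matplotlib 3.10.9. The computation was tested on simulated data. Genes named are the 6 markers, members of the fixed lists, the 20 highest over all other barcodes, the 10 highest and 10 lowest between libraries and against each group of neighbours, the 20 most variable and the 10 with most UMIs. Cluster genes, and genes that separate members with Hand2 from those with Hox9 to Hox13, were named after their values were seen. The members and lists were chosen with earlier results of these data known. The 18 lists hold 6 symbols that the matrix does not use. Some genes that meet these rules are not reported here.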

Additional observations from a re-analysis of the deposited data

How the results depend on the processing

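The number of members depends on the limits. With 1000 UMIs and 500 genes as the minimum, 1250 barcodes of library 1 and 2414 of library 2 met the rule, and with Acta2, Tagln and Myh11 at 400 or more per 10000, 401 and 649 did. Leaving out barcodes with 2 or more UMIs of another type's markers left 794 in library 2. Genes 1.5-fold higher and lower in library 1 numbered 178 and 63 among genes of 20 CPM or more and 55 and 14 at 100 CPM or more, and between 82 and 107 higher and 20 and 34 lower under the other settings. The genes are not all the same: of the 93 higher and 24 lower, 68 and 16 remained with Acta2, Tagln and Myh11 at 400 or more, 78 and 13 after thinning, 74 and 17 without the Nrip2 cluster, 90 and 15 without the Pcp4 cluster, 80 and 20 without the Col15a1 cluster and 77 and 19 without barcodes with other types' markers. Scaling by the median gene ratio divided all ratios by 0.992. For 298 genes and all settings, 3771 of 4759 ratios stayed within their counting interval and 984 moved further. Only genes 1.5-fold apart over all members were looked at for a change of side, and 4 of their ratios crossed 1. These were Lyz2 (0.680 with Acta2, Tagln and Myh11 at 400 or more), C3 (0.936 with Dcn and Lum under 5), Cd74 (0.637 without barcodes with other types' markers) and Timp4 (0.780 without the cluster led by Nrip2 and Timp4), and the cause was not tested. Cd74 and Timp4 themselves help to define the barcodes left out in their case. Over all settings Nfkbia stayed between 2.46 and 2.85, Junb between 2.03 and 2.45, Fos between 1.55 and 1.96, Sost between 0.575 and 0.691, Rgs5 between 0.442 and 0.797 and Tnnt2 between 3.08 and 6.98. Leaving out clusters, thinning the Hand2 and Hox groups and the second cluster resolution were chosen after seeing the data. No paired analysis was possible because each library is a single sample and no replicate exists. Genes under about 50 CPM, and genes carried by few barcodes such as Lcn2, are the least certain at this depth.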
